A study of Homo sapiens with 3 samples.

Results

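The collagen genes are described here in MCF10A cells, a non-malignant epithelial line from human breast that grows without limit in culture. Members were all protein-coding genes of GENCODE release 44 whose symbol is COL, a number, A and a number, with COL17A1 left out, which gave 43 of the 20046 protein-coding genes and of the 62754 genes in the deposited table. RNA was taken 27 h after seeding from 3 replicates of 1 condition, and ribosomal RNA was removed before sequencing. By the labels, all 3 replicates carried the empty Retro-X Tet-One vector under puromycin selection, expressed no inserted gene and received neither doxycycline nor another treatment. The labels do not say whether the replicates came from separate cultures, so an SD here may be technical. With 1 condition there was no contrast to test, and an exact sign-flip permutation test over 3 replicates cannot go below p = 0.25 (two-sided), so that levels are given by replicate.

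A collagen is a trimer of alpha chains, each the product of its own gene, wound into a triple helix of repeats with glycine at every turn. Fibrillar collagens form the cables of connective tissue, type IV collagens form the sheet-like network of basement membranes, short-chain types VIII and X form hexagonal networks, type VI forms beaded filaments, FACIT collagens sit on the surface of fibrils, and transmembrane collagens are anchored in the cell membrane. Breast epithelium rests on a basement membrane that the epithelial cells help to make, while fibrillar collagens of the breast come mainly from stromal fibroblasts.

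Levels are in TPM, transcripts per 1000000, a unit in which reads are divided by transcript length, so that different genes can be set side by side. Multiplying TPM by transcript length returned whole numbers, taken as reads, with totals of 15273329, 15446347 and 11166546 in replicates 1, 2 and 3 if the smallest step is 1 read. For a transcript of 6000 bases, 1 TPM was then 31.6, 32.5 and 26.9 reads. Replicate 3 held 15.1% of its TPM in the short non-coding RNA RN7SL1, against 4.93% and 5.66% in replicates 1 and 2, which leaves less TPM for all other genes. All 8 epithelial markers were at or above 1 TPM, with means from 14.6 TPM for EPCAM to 6612 TPM for KRT5. Of 8 fibroblast markers, LUM, PDGFRA, TCF21 and THY1 had 0 reads in every replicate, PDGFRB had a mean of 0.271 TPM, and POSTN, FAP and DCN had means of 219, 16.1 and 9.05 TPM. The fibroblast list summed to between 224 and 266 TPM. Of the endothelial list 1 of 6 genes passed 1 TPM (PECAM1, mean 1.77 TPM), and of the smooth muscle and leukocyte lists 0 of 4 and 0 of 5.

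Transcripts of the 43 members, which leave out COL17A1, were mostly those of the basement membrane. By the mean, 17 of the 43 genes (39.5%) reached 1 TPM, where 56.7% of all protein-coding genes did. All 3 replicates reached it for 16 of the 43 genes (37.2%), against 55.2% of protein-coding genes. In bulk RNA, fewer cells that express a gene and less RNA per cell cannot be told apart. At or above 10 TPM were 10 of the 43 genes, against 41.7% of protein-coding genes. Another 13 genes had some reads below 1 TPM, and 13 (30.2%) had 0 reads in every replicate, against 26.2% of protein-coding genes. In all, the collagen genes summed to 784, 791 and 670 TPM, with a mean of 748 ± 68.4 TPM (SD, n = 3). Replicates 1 and 2 were close and replicate 3 was lowest. As a share of the TPM of protein-coding genes the values were 0.0857%, 0.0882% and 0.0841%, and collagens took 0.193%, 0.199% and 0.191% of all reads.

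**Figure D1:**
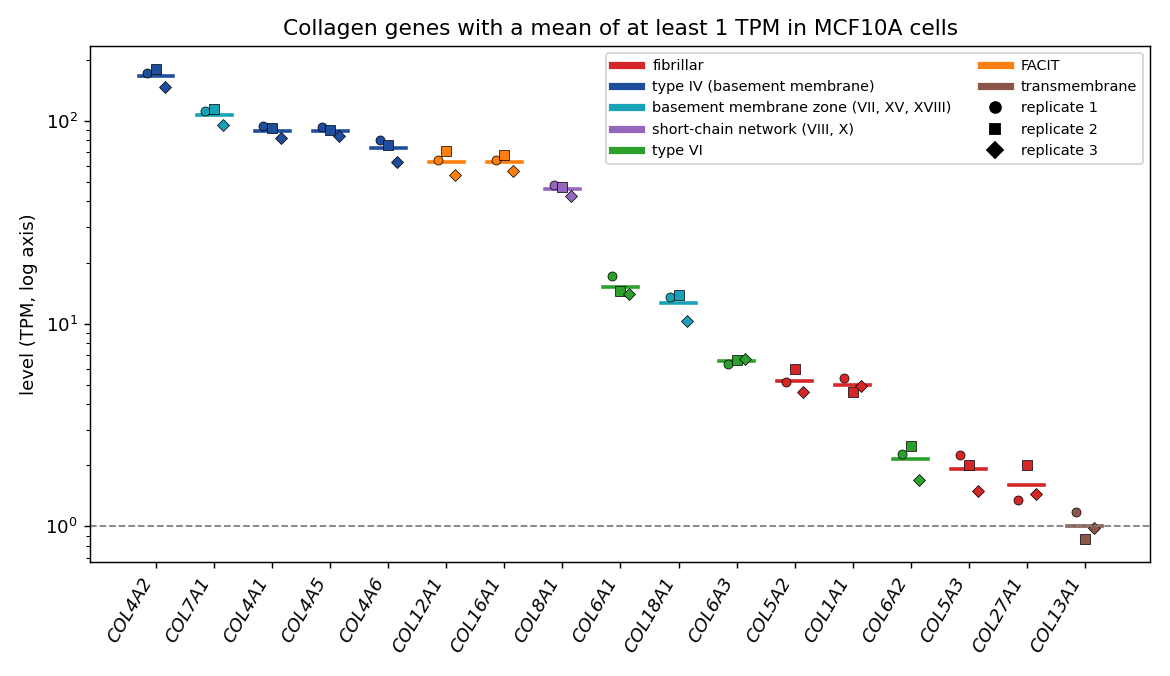
Level of each of the 17 collagen genes that reached 1 TPM by the mean (y axis, TPM on a log axis), ordered by the mean. Circles, squares and diamonds are replicates 1, 2 and 3, horizontal bars are means, colours are structural classes and the dashed line is 1 TPM. Levels run from 166 TPM for COL4A2 to 1.01 TPM for COL13A1, with a gap between COL8A1 at 46.0 TPM and COL6A1 at 15.2 TPM.

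The 6 genes of type IV held 55.8% ± 0.413 of the collagen TPM (SD, n = 3), the 10 FACIT genes 16.8% ± 0.608 and the 3 other genes of the basement membrane zone (types VII, XV and XVIII) 15.9% ± 0.225. The short-chain network genes held 6.16% ± 0.206, the type VI genes 3.20% ± 0.191 and the 11 fibrillar genes 1.89% ± 0.0422 (SD, n = 3 each). The order of these 6 classes was the same in every replicate. The 3 transmembrane genes among the members and the pair COL26A1 and COL28A1 held 0.138% and 0.0412%. All these shares are of the summed TPM of the 43 members. COL17A1, also a transmembrane collagen, was left out by the rule and had a mean of 402 TPM. The 8 highest genes held 92.8%, 93.1% and 93.0% of collagen TPM in replicates 1, 2 and 3.

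**Figure D2:**
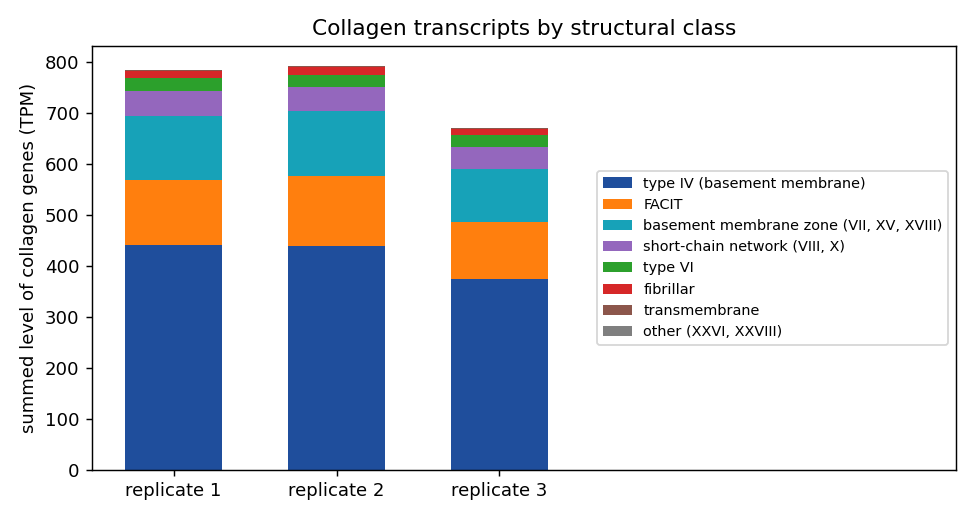
Summed TPM of the collagen genes (y axis, starting at 0) in each replicate, stacked by structural class. The sums are 784, 791 and 670 TPM, and type IV is the largest part in each replicate at 440, 438 and 375 TPM.

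Of the type IV genes, 4 of 6 were at or above 1 TPM. COL4A2 (ENSG00000134871, chromosome 13 of hg38 from 110305812 to 110513209, plus strand) was the highest of the 43 members. It was at 172, 179 and 146 TPM in replicates 1, 2 and 3, with a mean of 166 ± 17.3 TPM (SD, n = 3). This level was above that of 95.8% of protein-coding genes. COL4A1 (ENSG00000187498, chromosome 13 from 110148963 to 110307157, minus strand), whose chain joins that of COL4A2 in the common type IV trimer, was at 93.7, 92.3 and 82.1 TPM, with a mean of 89.4 ± 6.35 TPM (SD, n = 3). COL4A2 was thus 1.83-, 1.94- and 1.78-fold above COL4A1, a log2 ratio of 0.89 ± 0.06 (SD, n = 3), and the ranges of both genes did not overlap. In the trimer itself, chains of COL4A1 outnumber those of COL4A2.

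COL4A1 and COL4A2 stand head to head, and between their RefSeq start sites lie 126 bases. This stretch is shown since both highly expressed genes start at its ends. It is written on the COL4A2 strand, at chr13:110307158-110307283 of GRCh38.p14. Other annotated transcripts of COL4A2 begin in its last 26 bases, and the annotated COL4A2 gene begins before it, within COL4A1. Beside it stand the stretches upstream of COL4A5 (chrX:108439588-108439837, plus strand), of COL4A3 (chr2:227164454-227164623, plus strand, from the annotated start of COL4A4 on) and of COL7A1 (chr3:48595330-48595579, minus strand), to set expressed genes beside COL4A3, which had 0 reads. Capitals mark the CCAAT box (the letters CCAAT), the GC box (the letters GGGCGG) and the TATA box (the letters TATAAA), each on either strand, so that a match on the other strand appears as its reverse complement.
COL4A1-COL4A2: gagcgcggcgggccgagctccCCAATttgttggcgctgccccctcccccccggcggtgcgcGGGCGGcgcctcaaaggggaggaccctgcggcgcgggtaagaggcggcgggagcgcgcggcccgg
COL4A5: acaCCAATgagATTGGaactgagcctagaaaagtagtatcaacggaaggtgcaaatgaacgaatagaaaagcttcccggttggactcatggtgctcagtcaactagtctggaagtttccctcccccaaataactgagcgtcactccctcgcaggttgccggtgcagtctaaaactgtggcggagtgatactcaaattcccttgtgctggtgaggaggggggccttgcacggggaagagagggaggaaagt
COL4A3: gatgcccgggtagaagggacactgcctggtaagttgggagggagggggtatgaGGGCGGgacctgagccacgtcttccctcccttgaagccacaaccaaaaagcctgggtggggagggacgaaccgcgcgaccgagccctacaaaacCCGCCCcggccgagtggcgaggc
COL7A1: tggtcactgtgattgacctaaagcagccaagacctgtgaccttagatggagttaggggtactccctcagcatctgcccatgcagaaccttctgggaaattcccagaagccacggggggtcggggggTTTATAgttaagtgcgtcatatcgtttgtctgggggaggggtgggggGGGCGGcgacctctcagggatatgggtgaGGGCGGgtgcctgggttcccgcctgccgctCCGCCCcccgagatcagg
The letters CCAAT and GGGCGG each occurred at 1 place between COL4A1 and COL4A2, CCAAT at 2 places before COL4A5, GGGCGG at 2 before COL4A3, and GGGCGG at 3 and TATAAA at 1 before COL7A1. Among all 34943 RefSeq windows from 250 bases before to 50 after a start site, on both strands, 34.6% held CCAAT, 44.9% GGGCGG and 11.6% TATAAA. Among the 22049 windows of protein-coding genes these shares were 34.7%, 56.2% and 9.51%. The windows have 300 bases and are longer than each stretch shown, so that these shares are not for stretches of the same length. Such matches describe letters only.

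COL4A5 and COL4A6, head to head on chromosome X, were the next of type IV. COL4A5 (ENSG00000188153, from 108439838 to 108697545, plus strand) was at 93.6, 90.1 and 83.8 TPM, with a mean of 89.2 ± 4.98 TPM (SD, n = 3). It could not be ordered against COL4A1: their log2 ratio was 0.00 ± 0.03 (SD, n = 3), with COL4A1 higher in 2 of 3 replicates. COL4A6 (ENSG00000197565, from 108155607 to 108439497, minus strand) was at 80.7, 76.0 and 62.5 TPM, with a mean of 73.1 ± 9.44 TPM (SD, n = 3). COL4A5 was 1.16-, 1.19- and 1.34-fold above COL4A6, its partner in the trimer known from epithelial basement membranes such as those of skin and breast. COL4A3 had 0 reads in every replicate, which allows up to 0.0713, 0.0693 and 0.0838 TPM in replicates 1, 2 and 3 by a limit of 3 reads per replicate. COL4A4, its neighbour across 418 bases, had 16, 19 and 9 reads or 0.306, 0.353 and 0.202 TPM. These levels were 4.29-, 5.09- and 2.41-fold the COL4A3 limit of the same replicate, with counting error of COL4A4 left out. The chains of both belong to the type IV network of kidney glomeruli.

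The basement membrane zone also holds types VII, XV and XVIII. COL7A1 (ENSG00000114270, chromosome 3 from 48564073 to 48595329, minus strand), which builds the anchoring fibrils that tie the basement membrane to the stroma below, was second of the 43 members. It was at 112, 114 and 94.8 TPM, with a mean of 107 ± 10.5 TPM (SD, n = 3). Its longest transcript has 118 exons and 9276 bases. COL7A1 was above COL4A1 and below COL4A2 in every replicate. COL18A1 (ENSG00000182871, chromosome 21), whose C-terminal fragment is endostatin, was at 13.6, 13.9 and 10.3 TPM, with a mean of 12.6 ± 2.02 TPM (SD, n = 3), and 28.9% of its canonical transcript overlaps SLC19A1 on the opposite strand, which had a mean of 44.4 TPM. Whether strand was used in counting is not given in the sources used here. COL15A1, the relative of COL18A1, had 0 reads.

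Of the short-chain network genes, COL8A1 (ENSG00000144810, chromosome 3) was at 48.2, 47.2 and 42.6 TPM, with a mean of 46.0 ± 2.94 TPM (SD, n = 3). Its partner COL8A2 had 0 reads in every replicate, so that COL8A1 was at least 395-, 397- and 297-fold higher than COL8A2 by the limit of the same replicate. COL10A1, the collagen of hypertrophic cartilage, also had 0 reads.

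FACIT collagens have interrupted triple helices and attach to fibrils or to basement membrane. Of 10 genes, 2 were at or above 1 TPM. COL12A1 (ENSG00000111799, chromosome 6), which bridges fibrils, was at 64.1, 70.7 and 53.9 TPM, with a mean of 62.9 ± 8.50 TPM (SD, n = 3). COL16A1 (ENSG00000084636, chromosome 1), found near hemidesmosomes and fibrils, was at 63.7, 67.6 and 56.5 TPM, with a mean of 62.6 ± 5.64 TPM (SD, n = 3). Both genes overlapped and had a log2 ratio of 0.00 ± 0.07 (SD, n = 3). COL9A2 had 8, 0 and 1 reads, and COL9A3, COL14A1, COL20A1 and COL21A1 had at most 3 reads in any replicate. COL9A1, COL19A1 and COL22A1 had 0 reads.

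Type VI filaments lie between basement membrane and stroma and are built from chains of COL6A1, COL6A2 and a longer chain, most often that of COL6A3. COL6A1 (ENSG00000142156, chromosome 21) was at 17.1, 14.5 and 14 TPM, with a mean of 15.2 ± 1.64 TPM (SD, n = 3). COL6A3 (ENSG00000163359, chromosome 2) was at 6.30, 6.60 and 6.68 TPM, with a mean of 6.52 ± 0.201 TPM (SD, n = 3), and was the exception among the 17 genes in being highest in replicate 3. COL6A2 (ENSG00000142173), 93061 bases beyond the end of COL6A1 on the same strand, was at 2.28, 2.48 and 1.70 TPM from 41, 46 and 26 reads. COL6A1 was 7.5-, 5.85- and 8.26-fold above COL6A2 and 2.71-, 2.20- and 2.10-fold above COL6A3, so that the chains of this trimer had unequal RNA levels in every replicate. COL6A5 and COL6A6, which can replace COL6A3, had 0 reads.

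Fibrillar genes were low: 4 of 11 were at or above 1 TPM, and their highest mean was 5.24 TPM. COL5A2 (ENSG00000204262, chromosome 2), a regulator of fibril diameter, was at 5.18, 5.97 and 4.58 TPM, with a mean of 5.24 ± 0.698 TPM (SD, n = 3). COL1A1 (ENSG00000108821, chromosome 17), the major chain of type I collagen of skin and bone, was at 5.37, 4.60 and 4.91 TPM, with a mean of 4.96 ± 0.390 TPM (SD, n = 3), and overlapped with COL5A2. COL5A3 was at 2.26, 2.01 and 1.49 TPM and COL27A1 at 1.35, 2.0 and 1.44 TPM, a difference within the spread between replicates.
COL1A2 and COL5A1, which partner COL1A1 and COL5A2, had few or 0 reads. COL1A2 had 0 reads in every replicate, so that COL1A1, with 166, 146 and 129 reads, was at least 56.5-, 49.7- and 43.9-fold higher than COL1A2 by the limit of the same replicate. COL5A1 had 4, 3 and 4 reads against 185, 219 and 139 reads of COL5A2. Per length, COL5A2 was 57.2-fold higher in replicate 1 (95% exact interval from 22.0 to 212), 90.3-fold in replicate 2 (30.5 to 441) and 43.0-fold in replicate 3 (16.4 to 160), intervals that cover counting error only. COL3A1, tail to tail with COL5A2 across 19151 bases and a main collagen of fibroblasts, had 2, 0 and 0 reads. COL11A2 had 2, 15 and 0 reads, COL2A1 of cartilage 0, 3 and 6 and COL24A1 3, 0 and 1, while COL11A1 had 0. The levels of POSTN, FAP and DCN are given above beside the fibroblast markers at 0, and their part in the fibrillar levels was not tested.

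**Figure D3:**
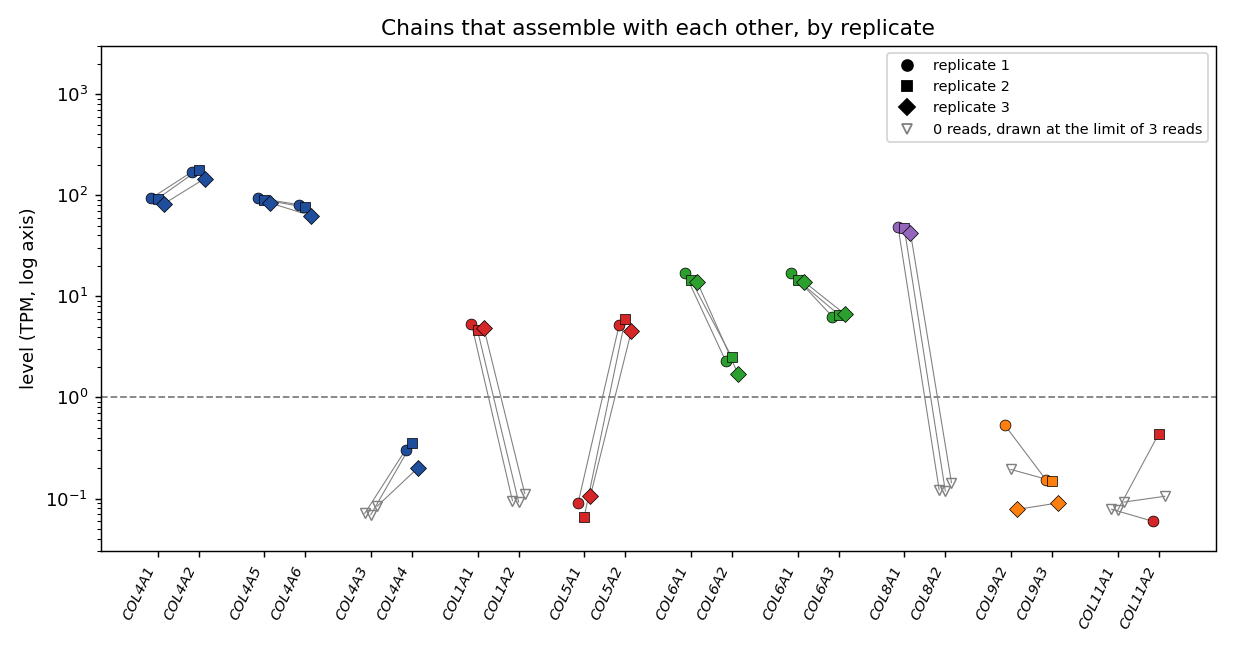
Level of 10 pairs of chains that assemble with each other (y axis, TPM on a log axis), with lines joining the values of a replicate. Open triangles are values of 0 reads, drawn at the limit of 3 reads, colours are structural classes, and the dashed line is 1 TPM. Both chains are high for COL4A1 and COL4A2 and for COL4A5 and COL4A6, whereas COL1A2, COL5A1 and COL8A2 lie far below their partners.

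Among the transmembrane members, without COL17A1, COL13A1 (ENSG00000197467, chromosome 10), found at cell junctions with the matrix, was at 1.17, 0.870 and 0.986 TPM. These came from 21, 16 and 15 reads, and COL13A1 was the member whose replicates lay on both sides of 1 TPM. Its mean was 1.01 ± 0.153 TPM (SD, n = 3). The deposited values rest on a longest transcript of 2 exons, while the canonical transcript of COL13A1 has 41 exons. COL23A1 had 0, 1 and 0 reads and COL25A1 had 0. Of the remaining genes, COL28A1 had 8, 10 and 3 reads and COL26A1 had 0. For the 13 genes without reads, the limit of 3 reads, taken as the highest over the replicates, lay between 0.0728 TPM for COL6A5 and 0.226 TPM for COL26A1.

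The CV, the SD as a percentage of the mean, was between 3.09% for COL6A3 and 22.2% for COL27A1. The median SD of log2(TPM + 1) was 0.14, against 0.16 over the 11360 protein-coding genes at or above 1 TPM, and it was 0.06 for the collagens without replicate 3. Of the 16 neighbours in the order of means, 12 differed by more than 1 SD of their log2 ratio and in the same direction in every replicate, and 4 did not. Besides COL4A1 and COL4A5, these were COL12A1 and COL16A1, COL5A2 and COL1A1, and COL5A3 and COL27A1. COL6A1 and COL18A1, a pair among the 12, changed order with canonical transcript lengths, at means of 12.4 and 12.5 TPM. In replicate 3, 16 of the 17 genes were below the mean of replicates 1 and 2, as were 89.5% of protein-coding genes. The median log2 ratio was -0.22 for the collagens and -0.24 for protein-coding genes, and with TPM scaled to protein-coding genes it was -0.03 and -0.05. Among the collagen genes above 10 TPM, the lowest log2 ratio of replicate 3, without this scaling, was that of COL18A1 at -0.42.

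**Figure D4:**
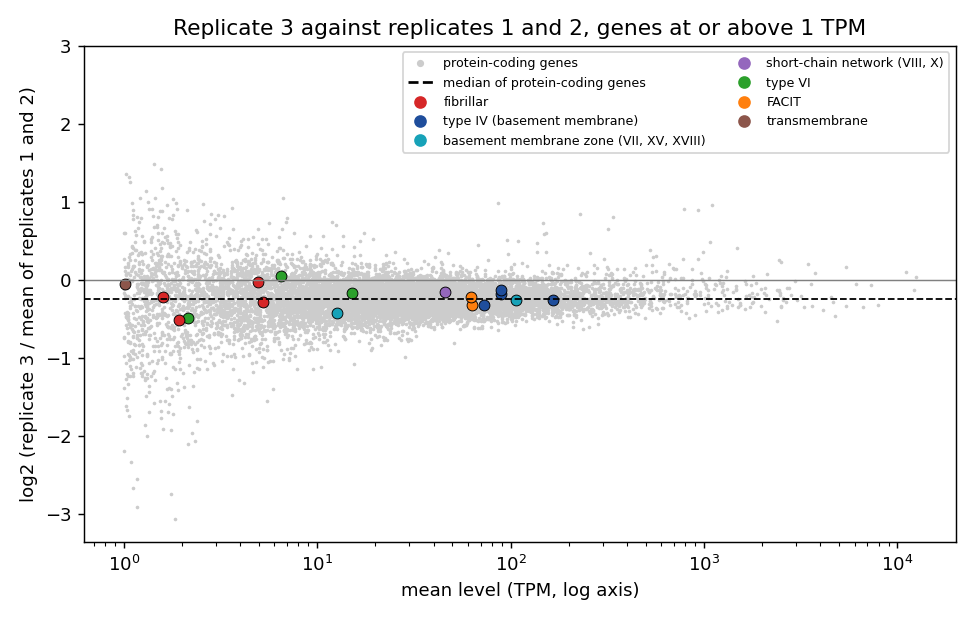
Log2 ratio of replicate 3 to the mean of replicates 1 and 2 (y axis) against the mean level (x axis, TPM on a log axis) for protein-coding genes at or above 1 TPM, in grey, and for the 17 collagen genes, in the colours of their class. The dashed line is the protein-coding median of -0.24, and the collagens lie on both sides of it.

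Of 51 genes that modify, fold, export, process, cross-link or bind collagen, in 5 lists, 40 were at or above 1 TPM, where 56.7% of all protein-coding genes were. Of the modifying enzymes 14 of 15 were. The highest were PPIB at 280 ± 31.9 TPM, a proline isomerase, P4HB at 230 ± 24.3 TPM, a subunit of prolyl 4-hydroxylase, and COLGALT1 at 191 ± 24.8 TPM, which adds galactose to hydroxylysine (SD, n = 3 each). Its paralog COLGALT2 had a mean of 0.259 TPM. Of folding and export genes 11 of 12 were at or above 1 TPM, led by SERPINH1 at 179 ± 18.8 TPM, the collagen chaperone, and by SEC31A and SEC13 of the coat of export vesicles at 130 ± 16.0 and 120 ± 10.2 TPM (SD, n = 3 each). CREB3L1, a transcription factor of collagen-secreting cells, had 0 reads.
Of the genes of propeptide processing 4 of 8 were at or above 1 TPM, a share near the 56.7% of all protein-coding genes. BMP1 at 29.6 ± 4.55 TPM and TLL1 at 16.2 ± 1.85 TPM, which remove C-propeptides, and PCOLCE2 at 4.72 ± 1.37 TPM, an enhancer of that step, were highest (SD, n = 3 each). The proteases that remove N-propeptides of fibrillar collagens were below 1 TPM by the mean: ADAMTS3 was at 0.823, 1.13 and 0.466 TPM, and ADAMTS2 and ADAMTS14 had at most 2 reads. TLL2 had a mean of 0.138 TPM. Of 6 cross-linking genes 5 were at or above 1 TPM. PXDN, which cross-links type IV collagen, was at 139, 139 and 108 TPM, while LOXL2 and LOX, which cross-link collagens through lysines, were at 10.2, 11.6 and 8.30 TPM and at 10.7, 8.70 and 7.30 TPM. LOXL4 had 0 reads. PXDN was above LOXL2 in every replicate.
Of 10 collagen receptors 6 were at or above 1 TPM, which is also near the 56.7% of all protein-coding genes. ITGB1 was at 520 ± 55.0 TPM, and its partners among collagen-binding integrins were ITGA2 at 47.0 ± 2.06 TPM, ITGA10 at 18.5 ± 2.32 TPM and ITGA1 at 3.26 ± 0.270 TPM (SD, n = 3 each). DDR1, a receptor kinase of epithelium, was at 59.8 ± 8.08 TPM and MRC2, a receptor for collagen uptake, at 49.9 ± 4.10 TPM (SD, n = 3 each). DDR2 had a mean of 0.779 TPM, ITGA11 of fibroblasts 0.0280 TPM, GP6 of platelets 0.143 TPM and LAIR1 of leukocytes 0.0406 TPM.

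**Figure D5:**
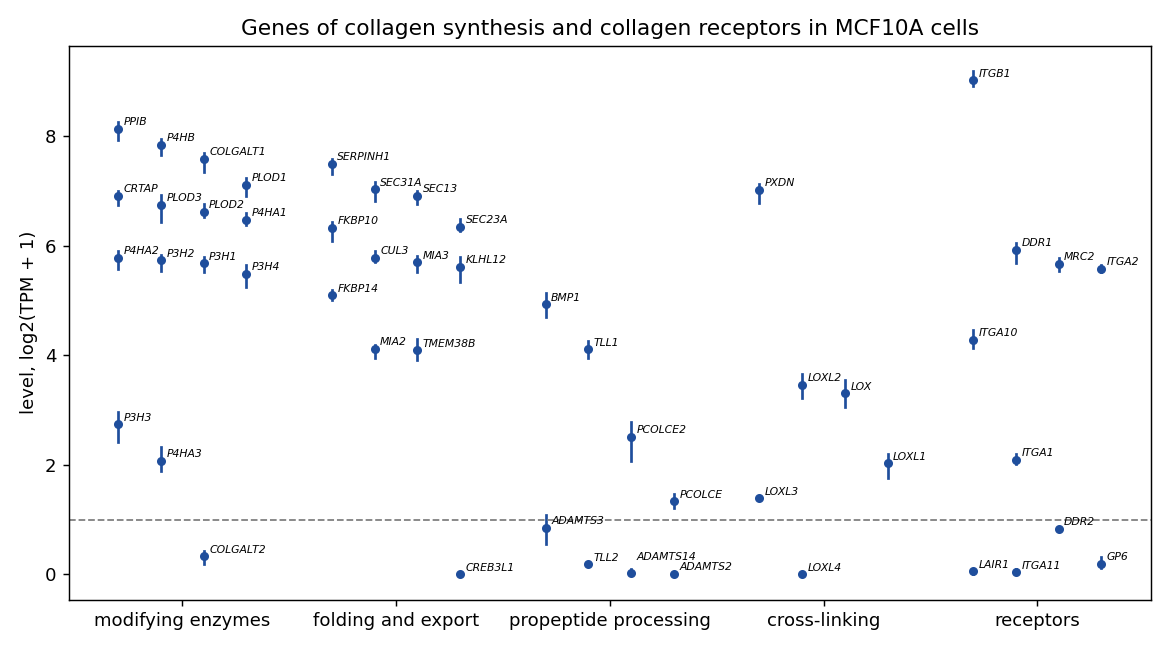
Level of the 51 genes of collagen synthesis and collagen receptors (y axis, log2 of TPM + 1), in 5 lists. Points are means, vertical lines run from the lowest to the highest replicate and the dashed line is 1 TPM. Modifying enzymes and export genes lie mostly between PPIB at 280 TPM and TMEM38B at 16.1 TPM, with P3H3, P4HA3, COLGALT2 and CREB3L1 below.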

How the data were processed

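RNA-seq was performed on 3 replicates of untreated, empty-vector MCF10A cells. By the study's methods, the authors depleted ribosomal RNA from 300 ng of RNA and ran Seq2science, a workflow for mapping and counting, on hg38. The submitters' processing notes name fastp, STAR, MultiQC and GRCh38.p14. The annotation release, the counting tool and the use of strand are not given in the sources used here. The authors deposited TPM values for 62754 genes, without filter, which sum to 1000000 in each replicate. Columns were matched to replicates by the library names in the labels.

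Genes were matched by Ensembl identifier to GENCODE release 44 on hg38, which held 62700 of them. TPM was multiplied by the length of the longest transcript, less 1 base per exon, and divided by the smallest value above 0. Within a tolerance of 0.001, 100% of the quotients were whole in each replicate, and they were taken as reads. Simulated reads were returned by the same step, which is so by construction because the same lengths were used both ways. The simulation cannot test the choice of lengths or the step of 1 read. Genes with 0 reads were given a limit of 3 reads per replicate. A gene was called expressed at a mean of at least 1 TPM, a cutoff that the study's methods used for its metabolic models. Spread was the SD of log2(TPM + 1). Ratios of partner chains, fixed for 10 pairs, were taken without pseudocount where both chains had at least 10 reads in every replicate, which held for 4 pairs. For 3 of the other pairs bounds are given, and for COL5A1 with COL5A2 exact intervals. The bounds leave out counting error of the chain with reads. Exon overlap was computed over the canonical transcript.

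Members, lists and pairs were chosen with earlier results of these data known. Named with their values are the members at or above 1 TPM. Of each of the 5 lists of synthesis and receptor genes, the 3 highest and those below 1 TPM are named. Of the marker lists, the fibroblast genes are all named, and the others in part or not at all. Other named genes were chosen after their values were seen. Promoter windows were RefSeq's on GRCh38.p14 and were found for 31 of the 43 genes. Alternatives covered the cutoff, the summary, the scaling, the transcript length, the pseudocount, the filter and leaving out each replicate. Scripts ran in Python (3.11.15) and used pandas (2.3.3) for tables, numpy (2.4.6) and scipy (1.17.1) for statistics, and matplotlib (3.10.9) for figures.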

Additional observations from a re-analysis of the deposited data

How the results depend on the processing

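No paired analysis was possible because the series holds 1 condition only. Of the collagen genes 17 reached the cutoff, with a range from 14 (cutoff of 2 TPM) to 17 under all alternatives tried, and the number of synthesis and receptor genes, 40, between 38 and 42. The summed collagen TPM of 748 was 860 with protein-coding genes scaled to 1000000 and 614 with canonical transcript lengths, and lay between 727 and 788 when 1 replicate was left out. Scaling to protein-coding genes multiplies every gene of a replicate by the same factor, while canonical lengths change genes unequally. With canonical lengths, the mean of COL4A1 went from 89.4 to 72.8 TPM and that of COL18A1 from 12.6 to 12.5 TPM. The log2 ratio of COL6A2 to COL6A1, -2.83, was -2.37 with a pseudocount of 1 TPM, which pulls low genes together by construction. The other 3 ratios moved by less than 1 SD under all alternatives tried. The median spread of 0.14 was 0.059 without a filter on low values, since most genes are then near 0, and lay between 0.060 (without replicate 3) and 0.19 (without replicate 1). The cause of the former was not tested. The median log2 ratio of replicate 3 was -0.034 with TPM scaled to protein-coding genes. COL13A1, nearest to the cutoff at 1.01 TPM, was below it by the median of the replicates, with canonical lengths and without replicate 1. Depth limits genes with few reads, for which a level cannot be told from 0.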

Other observations

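The letters around the start sites were compared between collagen genes at or above 1 TPM and those below it, as a description. The ratio of observed to expected CG pairs, which is high in the CpG-rich promoters of widely used genes, had a median of 0.542 in 15 windows of 13 collagen genes at or above 1 TPM and of 0.654 in 28 windows of 18 collagen genes below it, with a median of 0.736 over 22049 windows of protein-coding genes. COL4A1 and COL4A2, whose windows overlap in large part and are not independent, had ratios of 1.02 and 1.00. COL4A5 and both start sites of COL4A6 had ratios between 0.27 and 0.49. COL15A1 and COL25A1, with 0 reads, had ratios of 1.08 and 1.10. The antisense genes COL4A2-AS1 and COL4A2-AS2 had 1 read and 0 reads in all replicates together. The 43 collagen genes had longest transcripts with a median of 6422 bases and 46 exons, against 3324 bases and 7 exons over all protein-coding genes.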
